A study of Mus musculus with 48 samples.

Results

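LE and SE, a pair of synthetic peptides, were compared with each other in RAW264.7 cells that also received interferon gamma (IFN-γ). The comparison took 6 of the 48 libraries of the series, namely the 3 letter-labelled libraries of the group LE+IFNy and the 3 letter-labelled libraries of the group SE+IFNy, chosen by their labels and not by any measured value. RAW264.7 is an established mouse macrophage line. Both peptides copy residues 65 to 79 of the HLA-DR β chain, LE from the allele tied to systemic lupus erythematosus and SE from an allele tied to rheumatoid arthritis, and the stretches differ in a few residues. All 6 cultures received peptide at 100 µg/ml together with IFN-γ at 5 ng/ml and were harvested at 72 h. The other groups drawn on here, each with 3 letter-labelled libraries, were IFN-γ alone (IFNy), the third peptide PE with IFN-γ (PE+IFNy), PBS, and each peptide alone at the same dose and time (LE, SE, PE). The study calls its samples biological replicates, all of them are of 1 cell line, and the p-values measure the spread between these libraries. The question this pair of groups addresses is whether the peptides of the lupus-tied and the arthritis-tied allele give different transcript levels in the presence of IFN-γ.

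As background, macrophages take up IFN-γ through a receptor that signals by JAK kinases and induces genes of guanylate-binding proteins, chemokines and antigen presentation. Growing cells copy their DNA in S phase with a set of replication enzymes and then divide in mitosis, for which they build a spindle, attach chromosomes to it by kinetochores and split at cytokinesis. Genes of the mitotic stage share short promoter elements, the cell cycle homology region (CHR) and the CCAAT box, and are transcribed together late in the cycle.

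The 6 libraries held from 22831059 to 26929356 counts each. The 20 IFN-γ target genes had a mean log2(CPM + 1), where CPM is a gene's read count scaled to a common library total, of 6.94 to 7.11 in LE+IFNy and 6.78 to 6.90 in SE+IFNy, against 2.63 to 2.80 in the 12 libraries without IFN-γ. Of 15 macrophage markers 13 reached 1 CPM in all 6 libraries, and none of the 14 tested was called. Their summed level was 9387 to 10262 CPM in LE+IFNy and 8892 to 9123 CPM in SE+IFNy. No marker of T cells, B cells, NK cells, neutrophils, dendritic cells, fibroblasts, epithelial or endothelial cells reached 1 CPM in all 6, and all 5 epithelial markers were at 0. Mitochondrially encoded transcripts took 1.2% to 1.36% of the counts in LE+IFNy and 0.855% to 1.01% in SE+IFNy. The difference in this share was not tested, and single mitochondrial genes are given below.

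LE+IFNy and SE+IFNy differed at 627 of 12720 genes tested (4.93%), at an edgeR adjusted p under 0.05 and over 1.5-fold. Of these 421 were higher with LE (3.31% of genes tested) and 206 were higher with SE (1.62%). Among the 299 called genes with a mean of at least 10 CPM, 255 were higher with LE and 44 with SE. The largest fold change at that level was 3.05-fold, for Prr11, and 90 of the 421 genes higher with LE (21.4%) stood on lists of mitotic genes. On the SE side the largest was 2.60-fold, for Ccl5. Most genes differed little. The 95% interval of the difference lay within 1.5-fold either way for 8636 genes (67.9%), and the median log2 fold change over all genes tested was -0.01. Scaling by the upper quartile instead of TMM moved the split to 346 higher and 281 lower.

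**Figure D1:**
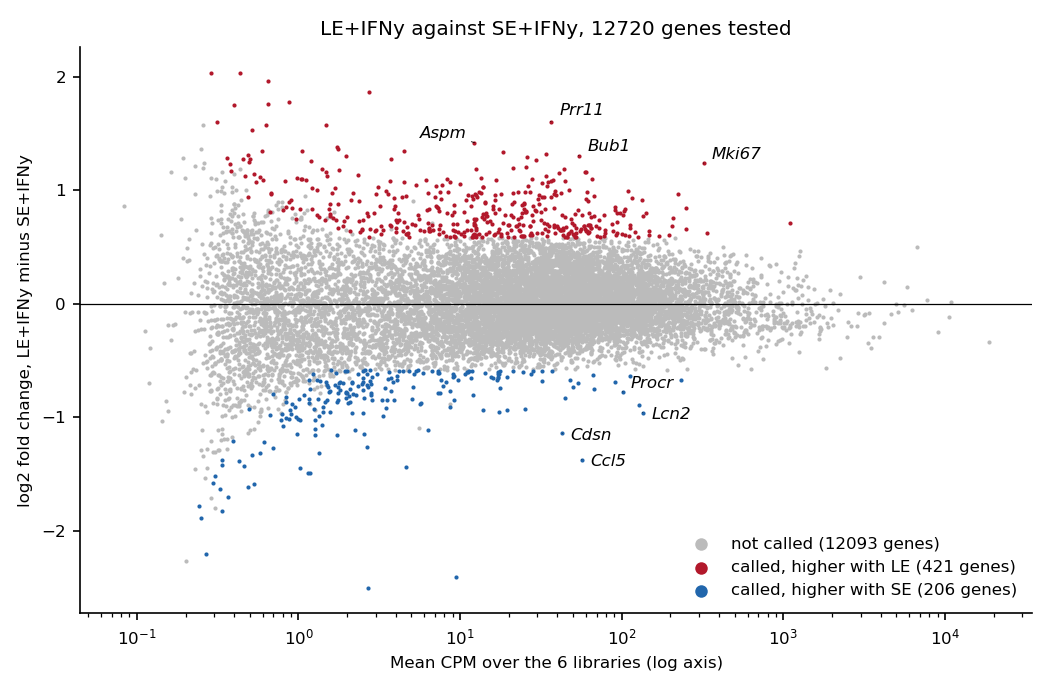
Log2 fold change between LE+IFNy and SE+IFNy (vertical axis, positive is higher with LE) against the mean CPM over the 6 libraries (horizontal log axis), 1 point per gene tested, called genes in colour. Ccl5 and Cdsn are the most changed of the genes higher with SE above 10 CPM.

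Genes of mitosis were higher with LE as a group. Of 122 genes on 4 lists of mitotic genes, all tested, 90 were called higher with LE and 0 lower. That was 73.8% of them, where 3.31% of all genes tested were called higher with LE. The median log2 fold change was 0.77 beside -0.01 over all genes. The lists covered kinetochore and checkpoint genes (25 of 36 called), spindle genes and motors (25 of 35), mitotic regulators (24 of 32) and condensin and cytokinesis genes (17 of 20), with medians of 0.67, 0.92, 0.68 and 0.83, and 1 called gene stood on more than 1 of them. Of the 122 log2 fold changes 120 were above 0. Between 78 and 96 members were called higher when any library or replicate number was left out, with the lowest count without LE+IFNy replicate 3. In bulk samples a larger share of dividing cells and more RNA of these genes per cell cannot be told apart.

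The promoters of 7 of the 12 leading genes are shown here as examples that hold both promoter elements in the printed window, and they were picked for that and are not typical of the 12. Of the 5 that are not shown, Knl1 has its CHR letters at base 32 after the start and no CCAAT box, Kif15 and Cep55 hold CHR letters but no CCAAT box, Kif14 has its CHR at -228, and Nusap1 has neither element. Each run holds 150 bases before and 30 bases after the start of transcription, 5′ to 3′ on the gene's strand, from RefSeq (GRCm38.p6), and the capitals mark CHR letters (TTTGAA or TTCGAA, either strand) and CCAAT boxes (CCAAT, either strand).
Prr11: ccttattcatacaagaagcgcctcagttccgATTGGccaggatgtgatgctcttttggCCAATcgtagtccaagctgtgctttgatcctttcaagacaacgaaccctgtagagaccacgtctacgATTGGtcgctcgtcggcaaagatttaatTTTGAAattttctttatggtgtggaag
Aspm: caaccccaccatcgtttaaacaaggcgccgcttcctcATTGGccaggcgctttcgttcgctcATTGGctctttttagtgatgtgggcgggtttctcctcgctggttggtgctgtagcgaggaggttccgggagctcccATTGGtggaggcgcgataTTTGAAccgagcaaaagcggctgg
Hmmr: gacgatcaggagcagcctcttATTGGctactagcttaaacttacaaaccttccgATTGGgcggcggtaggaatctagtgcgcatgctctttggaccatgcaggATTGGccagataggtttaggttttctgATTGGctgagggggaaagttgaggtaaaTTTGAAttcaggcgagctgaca
Bub1: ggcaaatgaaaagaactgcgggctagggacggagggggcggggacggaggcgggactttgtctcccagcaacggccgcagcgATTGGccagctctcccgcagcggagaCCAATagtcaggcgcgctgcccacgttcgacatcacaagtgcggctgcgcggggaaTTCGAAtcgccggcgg
Cenpf: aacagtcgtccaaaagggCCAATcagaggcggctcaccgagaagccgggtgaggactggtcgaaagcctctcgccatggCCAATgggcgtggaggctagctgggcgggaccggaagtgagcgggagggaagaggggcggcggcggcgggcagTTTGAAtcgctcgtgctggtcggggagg
Mki67: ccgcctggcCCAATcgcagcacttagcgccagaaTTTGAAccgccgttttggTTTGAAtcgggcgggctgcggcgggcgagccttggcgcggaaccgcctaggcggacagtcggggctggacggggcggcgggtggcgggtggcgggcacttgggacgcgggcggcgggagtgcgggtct
Prc1: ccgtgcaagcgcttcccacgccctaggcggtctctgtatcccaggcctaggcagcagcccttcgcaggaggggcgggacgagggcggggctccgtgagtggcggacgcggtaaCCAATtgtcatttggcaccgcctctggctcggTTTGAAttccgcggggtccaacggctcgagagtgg
These windows lie at chr11:87108685-87108864 on the minus strand for Prr11, chr1:139454623-139454802 on the plus strand for Aspm, chr11:40733408-40733587 on the minus strand for Hmmr, chr2:127831830-127832009 on the minus strand for Bub1, chr1:189688057-189688236 on the minus strand for Cenpf, chr7:135716350-135716529 on the minus strand for Mki67 and chr7:80294301-80294480 on the plus strand for Prc1. The CHR letters begin at base 4 after the start in Prr11, 7 in Aspm, 9 in Hmmr, 15 in Bub1 and 3 in Cenpf, at -5 in Prc1, and at -116 and -98 in Mki67. Promoters were available here for 72 of the 90 called mitotic genes. In the full 300-base window 48 of the 72 (66.7%) held the CHR letters, against 19.4% of all 27025 promoters and 14.1% of the 9257 promoters of genes tested. Within 50 bases of the start the shares were 58.3%, 5.26% and 3.53%. Among the 99 promoters of all listed mitotic genes, called or not, 63 (63.6%) held the CHR letters and 51.5% held them within 50 bases of the start, so the shares are a feature of the lists and are read as nothing particular to the called members. A CCAAT box was present in 70.8% of the 72 and in 37.9% of all promoters, and both elements in 54.2% and 7.66%. For the 99 listed genes these shares were 65.7% for the CCAAT box and 49.5% for both. A match of letters is a description and not a mapped binding site.

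Prr11, which is needed for progress through late S phase and mitosis, had 49.5, 49.8 and 65.0 CPM with LE and 16.8, 17.3 and 19.7 CPM with SE (chromosome 11, 87089153 to 87108708, GRCm38). The libraries of the groups did not overlap, and the log2 fold change was 1.61 (standard error 0.163, edgeR adjusted p 5.99e-06). Aspm, a protein of the spindle poles, had 16.2, 16 and 21.4 CPM with LE and 7.22, 6.25 and 6.47 CPM with SE (chromosome 1, 139454772 to 139494091). Every LE library was above every SE library, by a log2 fold change of 1.42 (standard error 0.135, edgeR adjusted p 3.89e-06). Bub1, a kinase of the spindle checkpoint, had 72.3, 75.3 and 84.0 CPM with LE and 29.9, 25.8 and 37.7 CPM with SE (chromosome 2, 127801122 to 127831865). Its log2 fold change was 1.31 (standard error 0.137, edgeR adjusted p 7.44e-06). Mki67, the Ki-67 protein that coats mitotic chromosomes, had 440, 400 and 513 CPM with LE and 204, 176 and 192 CPM with SE, a log2 fold change of 1.24 (standard error 0.139, edgeR adjusted p 1.26e-05). Again no library of one group reached the other group.

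The remaining genes of the leading 12 were of the same kinds. Knl1 (1.34, standard error 0.166) and Cenpf (1.29, standard error 0.138) are kinetochore proteins, and Hmmr (1.32, standard error 0.117), Nusap1 (1.2, standard error 0.164) and Prc1 (1.19, standard error 0.0964) bind spindle microtubules. Kif15 (1.27, standard error 0.133) and Kif14 (1.19, standard error 0.118) are kinesin motors, and Cep55 (1.19, standard error 0.0999) acts in the final cut between daughter cells. Their edgeR adjusted p-values ran from 1.69e-06 for Prc1 to 6.09e-05 for Nusap1. Nusap1 overlaps Oip5 and Prc1 overlaps Rccd1 on the opposite strand, and whether counting used strand is not given in the sources used here. Nek2, a centrosome kinase (1.16, standard error 0.12), Ccna2, cyclin A2 (0.99, standard error 0.114), and the condensin subunit Ncapg (1.09, standard error 0.134) were also called. Ect2 (1.09), Arhgap11a (1.08) and Diaph3 (1.04), which act on the actin ring of dividing cells, were higher as well. Nek2, Ccna2 and Ncapg also have a neighbour on the opposite strand that overlaps them. The mitotic members that were not called had smaller log2 differences, such as 0.55 for Cdk1 (95% interval 0.36 to 0.74) and 0.58 for Aurka (0.37 to 0.79), both past the adjusted p but under the fold minimum. Zwint was at -0.09 (-0.21 to 0.03) and Mad1l1 at -0.00 (-0.15 to 0.14).

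Set beside IFN-γ alone, the median mitotic gene was higher with LE and lower with SE. The median log2 difference from IFNy was 0.53 for LE+IFNy and -0.21 for SE+IFNy, where both differences use the same IFNy libraries and the medians over all genes were -0.01 and -0.01. Prr11 had 32.3 ± 8.66 CPM (SD, n = 3) with IFN-γ alone, so it lay 0.76 above it on the log2 scale with LE (standard error 0.155), and with SE the difference was -0.84 (standard error 0.166). Bub1 had 29.8 ± 6.87 CPM with IFN-γ alone, 1.37 below LE and at the level of SE, from which it differed by 0.07. Aspm had 14.7 ± 2.59 CPM, a log2 difference of 0.28 to LE (edgeR adjusted p 0.0722) and of -1.14 to SE (edgeR adjusted p 5.11e-06). With PE and IFN-γ the levels were 26.8 ± 4.30 CPM for Prr11, 25.9 ± 2.33 CPM for Bub1 and 12 ± 0.585 CPM for Aspm. Over the 122 genes the mean log2(CPM + 1) was 5.39 ± 0.0886 in LE+IFNy, 4.67 ± 0.0899 in SE+IFNy, 4.87 ± 0.201 in IFNy and 4.8 ± 0.0882 in PE+IFNy (SD, n = 3). All 3 LE+IFNy libraries lay above every other of the 24 libraries.

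**Figure D2:**
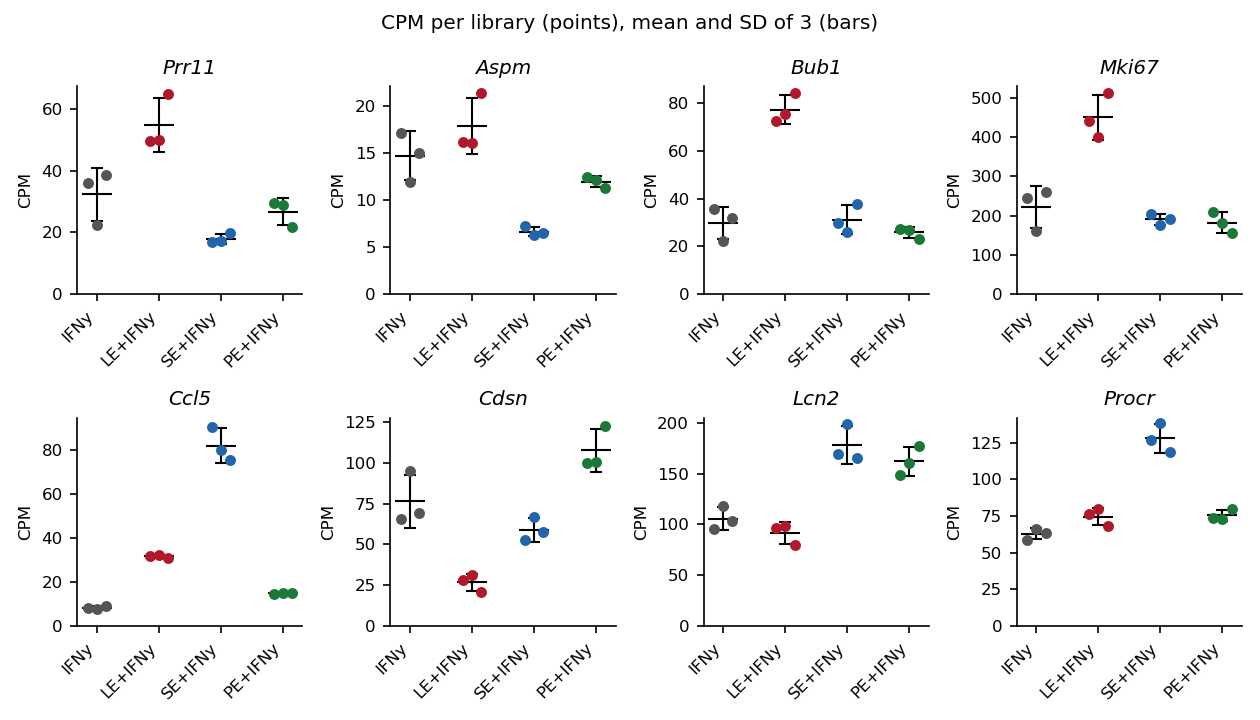
CPM of 4 mitotic genes (top) and 4 genes higher with SE (bottom) in the 12 letter-labelled libraries with IFN-γ, 1 point per library, with the mean and SD of 3 as bars. LE+IFNy is the highest group for Prr11, Bub1 and Mki67, and SE+IFNy is the highest for Ccl5 and Procr.

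DNA replication genes were also higher with LE, by less. Of 58 tested 9 were called higher (15.5%, beside 3.31% of all genes tested) and 0 lower, with a median log2 fold change of 0.37. At an adjusted p under 0.05 alone 42 were higher. Pola1, the catalytic subunit of DNA polymerase alpha, had 31.8, 30.5 and 33.6 CPM with LE and 17.9, 15.4 and 18.7 CPM with SE, without overlap (log2 fold change 0.88, standard error 0.0909, edgeR adjusted p 6.48e-06). Dbf4 (0.78) and Cdc7 (0.73), which form the kinase that fires replication origins, and Gins1 (0.72), a part of the replicative helicase, followed. The helicase gene Mcm2 (0.12, 95% interval 0.01 to 0.23), the sliding clamp Pcna (0.22, 0.08 to 0.36) and the flap nuclease Fen1 (0.06, -0.07 to 0.19) lay within 1.5-fold. Replication genes stood above IFN-γ alone with both peptides, by a median log2 difference of 0.73 with LE and 0.36 with SE. Without LE+IFNy replicate 3 the replication count was 6.

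Over all genes tested 3.31% were called higher with LE and 4.93% either way. Of 46 DNA repair genes tested 14 were called higher (30.4%) and 0 lower, with a median of 0.38. They included Neil3, a DNA glycosylase (1.04), Fancd2 of the Fanconi anaemia pathway (0.90), the helicase Brip1 (0.88) and the recombination protein Rad54b (0.87). Rbl1, a retinoblastoma relative (0.86), and E2f8, a late-cycle repressor (0.69), were the 2 called (9.09%) among 22 E2F factors and G1/S cyclins. The median of that list was 0.13. None of 21 CDK inhibitors and p53 targets and none of 11 replication-dependent histone genes was called. Histone transcripts lack a poly(A) tail and are mostly missed by the library method.

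**Figure D3:**
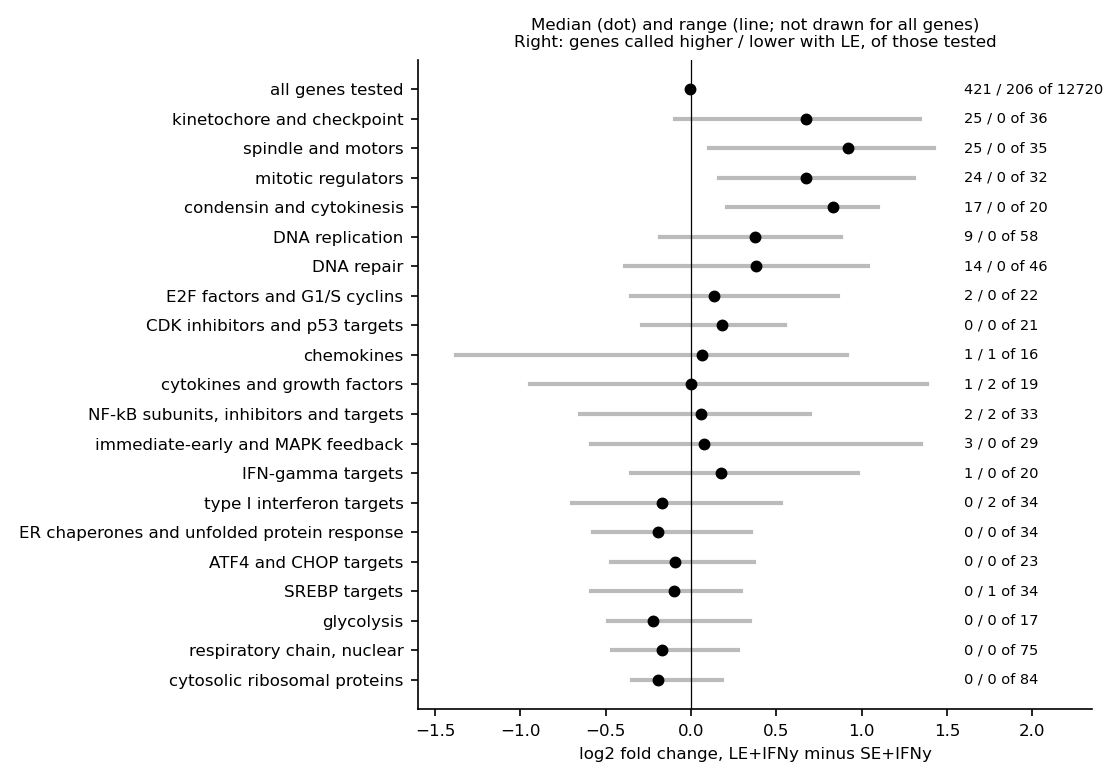
Median (dot) and range from lowest to highest (line, not drawn for all genes) of the log2 fold change between LE+IFNy and SE+IFNy for each gene list, with the counts called higher and lower with LE. The 4 mitosis lists have medians from 0.67 to 0.92, and DNA replication and DNA repair have 0.37 and 0.38.

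Transcript length and base composition moved with the comparison. Across genes, which are not independent replicates, Spearman's rho of the log2 fold change was 0.361 with transcript length and -0.479 with GC content. Without the called genes it was 0.351 and -0.460. The difference between LE and SE without IFN-γ, from other libraries, had a rho of 0.348 with length and -0.105 with GC content. The length trend was thus not particular to the comparison with IFN-γ. The genes higher with LE had a median length of 4028 bases and 44.1% GC, those higher with SE 1972 bases and 55.3%, and all genes tested 2905 bases and 50.1%. Mitotic genes had a median of 3269 bases and 46.0% GC. With both trends subtracted 84 of 120 mitotic genes were called higher, with a median of 0.70, whereas repair genes went from 14 to 5 and all called genes from 627 to 378. Of 612 called genes with a length and GC content 368 (60.1%) stayed past 1.5-fold the same way. Among the genes named here that lost their call were Brip1 (0.58), Avpi1 (-0.49), Ptgs2 (0.42), Bcl3 (-0.35), Nfkbie (-0.50), Il27 (-0.35), Abca1 (0.65), Gpr84 (-0.53) and Mt1 (-0.50). Cytosolic ribosomal protein genes, with a median length of 910 bases, went from a median of -0.19 to -0.02 and nuclear respiratory chain genes from -0.17 to -0.01, and 0 of 84 and 0 of 75 were called.

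Among the genes higher with SE, Ccl5 stood first. Ccl5 encodes a chemokine that attracts T cells and monocytes (chromosome 11, 83525778 to 83530518). It had 31.6, 32.1 and 30.7 CPM with LE and 90.4, 79.7 and 75.2 CPM with SE. No libraries overlapped, as the choice of the leading genes required. The log2 fold change was -1.38 (standard error 0.0738, edgeR adjusted p 5.43e-09). With IFN-γ alone it had 8.08 ± 0.729 CPM and with PE and IFN-γ 14.8 ± 0.283 CPM (SD, n = 3), so both LE (1.97) and SE (3.34) were above IFN-γ alone on the log2 scale. Without IFN-γ the difference between LE and SE was -0.58 (95% interval -1 to -0.15, edgeR adjusted p 0.549).

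Cdsn, corneodesmosin, an adhesion protein of the epidermis (chromosome 17, 35552128 to 35557180), had 28.1, 31.0 and 20.7 CPM with LE and 52.6, 66.9 and 57.4 CPM with SE. The groups did not overlap, and the log2 fold change was -1.14 (standard error 0.146, edgeR adjusted p 3.54e-05). Lcn2, lipocalin 2, which binds bacterial iron carriers (chromosome 2, 32384633 to 32388252), had 96.4, 98.5 and 79.4 CPM with LE and 170, 199 and 165 CPM with SE, again apart, with a log2 fold change of -0.96 (standard error 0.0933, edgeR adjusted p 4.29e-06). Procr, the endothelial protein C receptor, had 76.2, 79.5 and 68.3 CPM with LE and 127, 138 and 119 CPM with SE, a log2 fold change of -0.78 (standard error 0.0697, edgeR adjusted p 2.71e-06). Avil, the actin-binding protein advillin, had 97.1, 103 and 66.4 CPM against 153, 189 and 154 CPM, a log2 fold change of -0.89 (standard error 0.176, edgeR adjusted p 0.00106). The levels beside IFN-γ alone differed from gene to gene. For Cdsn both peptides lay below it, by -1.52 with LE and -0.38 with SE, for Avil by -1.75 and -0.86, whereas for Lcn2 (-0.21 and 0.75) the sides differed and Procr lay above it with both (0.25 and 1.03).

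The remaining named genes higher with SE were of mixed kinds. Clec10a (-0.95, standard error 0.136) is a galactose-binding lectin of macrophages, Pgf (-0.94, standard error 0.122) a growth factor of the VEGF family, Pi16 (-0.94, standard error 0.14) a secreted peptidase inhibitor and H2afj (-0.75, standard error 0.0707) a histone H2A variant. Avpi1 (-0.74), Prelid2 (-0.80) and Rps2-ps10 (-0.83), a pseudogene whose reads can be shared with its parent gene, completed the 12. The edgeR adjusted p-values of these 7 genes ran from 3.72e-06 for H2afj to 0.000131 for Avpi1. Pgf was 0.808 ± 0.215 CPM with IFN-γ alone, 9.54 ± 0.415 CPM with LE and 18.3 ± 2.54 CPM with SE. H2afj overlaps a predicted gene on the opposite strand, and Pi16 and Avil do so as well. Gpr84, a receptor for medium-chain fatty acids (-0.69), and the metallothionein Mt1 (-0.67) were called too and were singled out after their values were seen. Gpr84 overlaps a gene on the opposite strand, and without replicate 3 it was at -0.58 and not called.

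The largest fold changes on the SE side were those of Hspa1a and Hspa1b, inducible heat shock proteins of the HSP70 family, which fell under the level required for naming and were singled out after their values were seen. Hspa1b had 3.01, 3.78 and 2.03 CPM with LE and 19.2, 16 and 12.2 CPM with SE (chromosome 17, 34956436 to 34959238). The groups did not overlap, and SE was 5.31-fold higher (log2 fold change -2.41, standard error 0.191, edgeR adjusted p 1.69e-06). Hspa1a had 0.715, 1.00 and 0.661 CPM with LE and 5.74, 5.50 and 2.45 CPM with SE (log2 fold change -2.50, standard error 0.305, edgeR adjusted p 2.34e-05). Hspa1a overlaps a predicted gene on the opposite strand, and these neighbours are near-identical, so unique reads can be split unevenly between them. With IFN-γ alone Hspa1b had 2.30 ± 0.361 CPM and with PE and IFN-γ 4.07 ± 0.414 CPM. Other heat shock genes differed less. Hsph1 was at -0.42 (standard error 0.0644, edgeR adjusted p 0.000139), Hspa8 at -0.24, Dnajb1 at -0.18, Bag3 at -0.10 and Hsp90aa1 at 0.06, none over 1.5-fold.

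Inflammatory gene lists held calls in both directions. The shares called were 12.5% of chemokines, 15.8% of cytokines and growth factors and 12.1% of NF-κB genes, beside 4.93% of all genes tested. Of 16 chemokines tested 1 was called higher, Cxcl2, and 1 lower, Ccl5, with a median of 0.06. Cxcl2, a chemokine for neutrophils, had 166, 163 and 193 CPM with LE and 99.8, 82.7 and 95.1 CPM with SE, without overlap (log2 fold change 0.91, standard error 0.107, edgeR adjusted p 1.83e-05). Of 19 cytokines and growth factors Il1a (1.38, standard error 0.257) was higher with LE, at 2.26 to 2.77 CPM against 0.704 to 1.10 CPM, and Pgf and Il27 (-0.59, standard error 0.146) were higher with SE. Il27 was near the fold minimum and lost its call with the replicate block (-0.58), with DESeq2 (-0.58), with RLE factors (-0.58), with library totals alone (-0.57) and with glmTreat. It also lost it without replicate 1 (-0.52), without replicate 3 (-0.57), without LE+IFNy replicate 2 (-0.56) or 3 (-0.58), and without SE+IFNy replicate 1 (-0.49) or 3 (-0.58). NF-κB subunits, inhibitors and targets had a median of 0.06 over 33 genes, of which 25 had a 95% interval within 1.5-fold. Nfkbiz (0.69) and Ptgs2 (0.68), the inducible cyclooxygenase, were higher with LE, and Bcl3 (-0.65) and Nfkbie (-0.64) were higher with SE. Ptgs2 was not called without SE+IFNy replicate 2 (0.56), nor Nfkbie without LE+IFNy replicate 2 (-0.56) or SE+IFNy replicate 1 (-0.56). Il1a, Il27 and Bcl3 overlap genes on the opposite strand. None of 20 Toll-like receptor and adaptor genes and none of 24 cell death genes was called.

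Of 29 immediate-early and MAPK feedback genes 3 were called (10.3%, beside 4.93% of all genes tested), all higher with LE. Egr2 had 6.21, 5.37 and 7.66 CPM with LE and 2.77, 2.64 and 2.13 CPM with SE (log2 fold change 1.35, standard error 0.19, edgeR adjusted p 8.12e-05). Egr1 (0.94, standard error 0.132) and Myc (0.67, standard error 0.132), which drive growth programmes, were the others, and the median of the list was 0.08. Cxcr4, the receptor for the chemokine CXCL12, had 44.3, 51.8 and 57.4 CPM with LE and 29.2, 24 and 23.8 CPM with SE (log2 fold change 0.99, standard error 0.101, edgeR adjusted p 5.99e-06). Gda, guanine deaminase (1.07), and F10, coagulation factor X (0.97), were also higher with LE, and these last 3 genes were chosen after their values were seen.

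Interferon targets were called at shares near the 4.93% of all genes tested, 5% of the IFN-γ targets and 5.88% of the type I targets. Of 20 IFN-γ targets 1 was called, the guanylate-binding protein gene Gbp7, with 32.7, 21.9 and 29.4 CPM with LE and 13, 12.4 and 17.1 CPM with SE (log2 fold change 0.98, standard error 0.181, edgeR adjusted p 0.000637), and the median was 0.18. Gbp7 overlaps a predicted gene on the same strand. Of 34 type I interferon targets 2 were called, both higher with SE, with a median of -0.17. At an adjusted p under 0.05 alone 14 of the type I targets were higher with SE and 3 with LE. For the IFN-γ targets these counts were 3 and 9, and over all genes tested 2105 and 2420. Isg15, a ubiquitin-like modifier, had 38.3, 43.2 and 40.6 CPM with LE and 60.8, 70.8 and 66.4 CPM with SE (log2 fold change -0.70, standard error 0.0679, edgeR adjusted p 4.29e-06), and Isg20, an exonuclease, was at -0.67 (standard error 0.101). With the length and GC trends subtracted Isg15 was at -0.49 and Isg20 at -0.42, under the fold minimum. None of 8 interferon regulatory factors was called.

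Stress, lipid and metabolic lists held at most 1 call each, where 4.93% of all genes tested were called. None of 34 ER chaperone and unfolded protein response genes was called, and 31 of them had a 95% interval within 1.5-fold, although 20 were higher with SE at an adjusted p under 0.05 alone (median -0.20). Hspa5, the main ER chaperone, differed by -0.12 (95% interval -0.25 to 0.01) and Ddit3, which encodes CHOP, by -0.15 (-0.28 to -0.02). None of 23 ATF4 and CHOP targets, 17 glycolysis genes (median -0.22) and 15 NRF2 targets (median -0.18) was called. The cholesterol exporter Abca1 (0.87, standard error 0.232) was the only call of 9 LXR targets, the carbonic anhydrase Car2 (0.93, standard error 0.0919) the only one of 14 osteoclast genes, and the protease Ctsh (0.66) the only one of 18 lysosome genes, lost without replicate 3 (0.51) or LE+IFNy replicate 3 (0.52). The 7 mitochondrially encoded respiratory genes had a median of 0.27, and 4 were higher with LE at an adjusted p under 0.05. Of the 7 only mt-Nd6 was called (1.27, standard error 0.272), at 3.44 to 6.62 CPM against 1.54 to 3.35 CPM. Without replicate 1 mt-Nd6 was at 0.90 and not called. It lies opposite mt-Nd5 on the other strand. None of 7 arginine and nitric oxide genes and neither of the 2 peptide receptor genes was called.

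Of 20 genes taken from the study's text 1, Ccl5, was called here, a share near the 4.93% of all genes tested. The study reports some of them for other cells, such as Ifi44, Ifi44l, Irf7 and Dnase1l3 in bone marrow-derived macrophages of transgenic mice. Others it reports as proteins, such as RIP1 and CHOP, which RNA does not measure. It lists Ccl5 among genes raised by LE over IFN-γ alone, whereas here Ccl5 was higher with SE than with LE. Another 6 of the 20 had an adjusted p under 0.05 and less than 1.5-fold. They were the transcription factor Irf4 (0.55, 95% interval 0.32 to 0.78), the inducible nitric oxide synthase Nos2 (0.44, 0.27 to 0.60), Tnf (0.52, 0.36 to 0.68), Ripk1 (0.26, 0.14 to 0.39), Irf7 (-0.23, -0.41 to -0.05) and Traf1 (-0.24, -0.42 to -0.05). Of the 19 that were not called, 14 had a 95% interval within 1.5-fold either way, among them the kinase Pim1 (0.13, -0.04 to 0.29), Tnfrsf9 (0.06, -0.24 to 0.36), Relb (-0.15, -0.29 to -0.01), Sqstm1 (-0.07, -0.19 to 0.04) and Mlkl (-0.04, -0.17 to 0.08). For Cxcl10 (0.40, 0.05 to 0.74) and Il1b (-0.31, -1.11 to 0.49), the latter near 1 CPM, the interval reached past 1.5-fold. The study's own lists were chosen on these samples and are not independent evidence. Its 22 lupus genes higher with LE had a median of 0.42 (3 called higher, 1 lower) and its 25 lower with LE a median of -0.23 (0 and 1). Its 26 arthritis genes higher with SE had a median of 0.04 (1 and 1) and its 18 lower with SE a median of -0.01 (1 and 0). In that order the shares called were 18.2%, 4%, 7.69% and 5.56%, beside 4.93% of all genes tested.

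Without IFN-γ the same peptides were compared in other libraries, 3 of LE and 3 of SE, in a fit of all 24 letter-labelled libraries. In that fit 0 of 13096 genes (0%) were called by edgeR, 1096 had an unadjusted p under 0.05, and DESeq2 called 3. A count of 0 does not show that the peptides act alike without IFN-γ. Glycolysis genes varied more there, with an SD of 0.310 in LE and 0.340 in SE against 0.0130 in LE+IFNy and 0.0140 in SE+IFNy. Part of this spread went with the replicate number. Replicate 1 was the lowest library in PBS, LE, SE and PE, at 8.35, 8.63, 8.74 and 8.79. The means of these groups were 8.82, 8.99, 9.05 and 9.07. The fit held no replicate block, and with the block 0 genes were called without IFN-γ as well. The SD of the mitotic lists was 0.0563 in LE and 0.0863 in SE, against 0.0886 and 0.0899 with IFN-γ. The mitotic genes had a median log2 difference of 0.11 without IFN-γ. Prr11 differed by 0.20 (95% interval -0.23 to 0.62), Bub1 by 0.23 (-0.09 to 0.55), Aspm by 0.14 (-0.20 to 0.48), Lcn2 by -0.27 (-0.52 to -0.02) and Hspa1b by 0.08 (-0.60 to 0.75). A test of the interaction asked whether the difference between LE and SE itself depended on IFN-γ. It was called for 116 of 13096 genes (0.886%), 87 with a higher signed LE minus SE difference under IFN-γ and 29 with a lower one. A lower signed difference can be a larger difference towards SE, as for Hspa1b. Of the 122 mitotic genes 40 were among the 87 and 0 among the 29, with a median interaction of 0.66. For Ccl5 the interaction was -0.81 (edgeR adjusted p 0.0811) and not called. The interaction count fell to 0 without replicate 1 or replicate 2, to 12 without replicate 3, and to 35 without LE+IFNy replicate 3. It was 38 without SE+IFNy replicate 2, 77 without SE+IFNy replicate 1, 63 and 49 without LE replicates 2 and 3, and 56 without SE replicate 1.

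**Figure D4:**
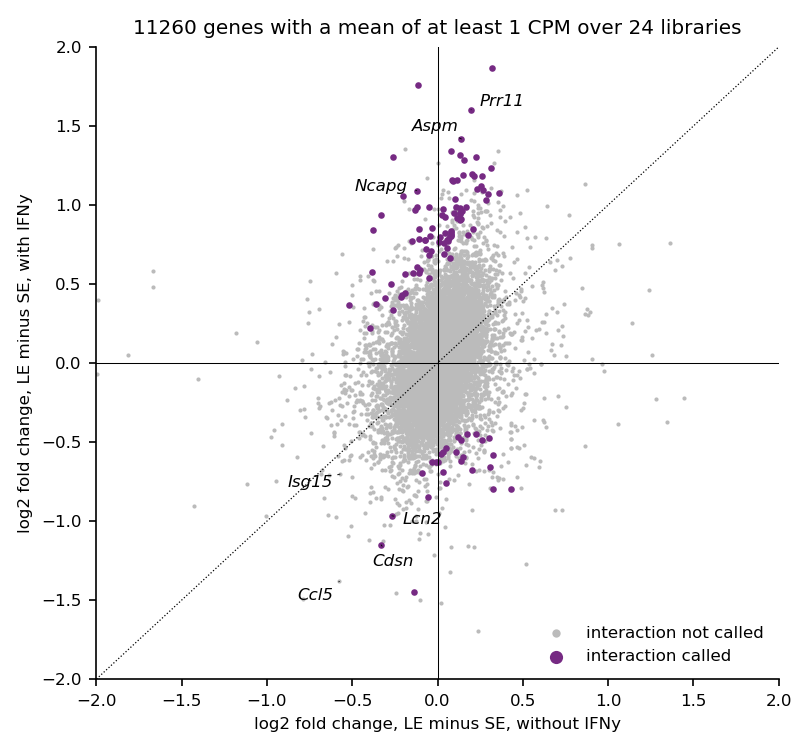
Log2 fold change of LE against SE with IFN-γ (vertical) and without it (horizontal) in a fit of 24 libraries, for 11260 genes with a mean of at least 1 CPM (9 lie beyond the axes), with genes called for the interaction in colour and a dotted line of equal change. Prr11 and Aspm lie near 0 on the horizontal axis and above 1 on the vertical one.

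**Figure D5:**
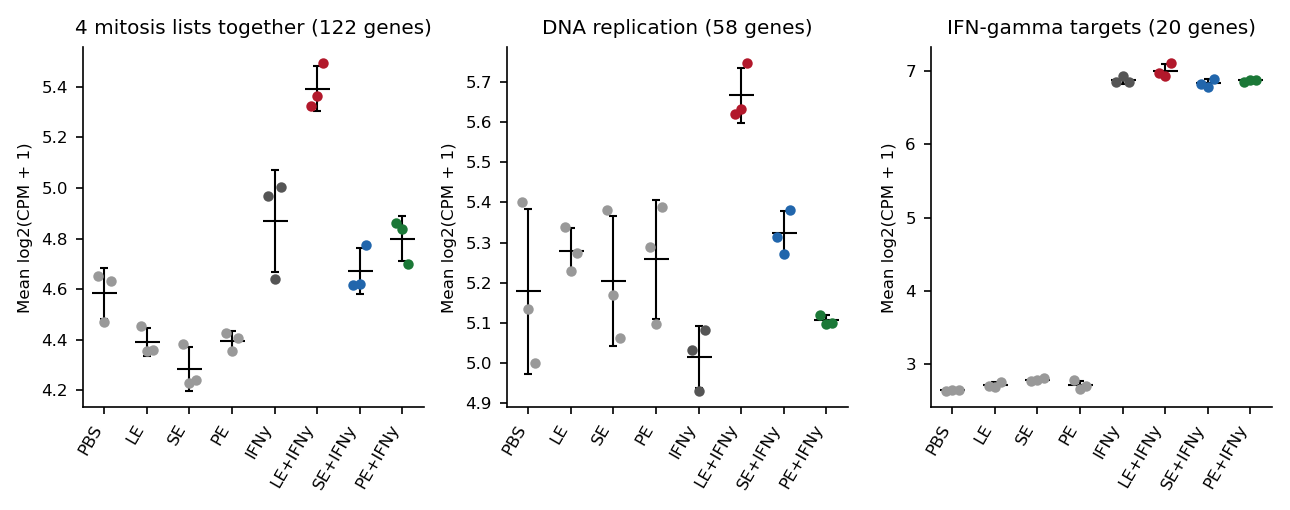
Mean log2(CPM + 1) over 122 mitotic genes, 58 DNA replication genes and 20 IFN-γ targets in 24 letter-labelled libraries by group, 1 point per library, with mean and SD of 3 as bars and vertical axes that do not start at 0. The LE+IFNy libraries are the highest for the first 2 lists, and the IFN-γ targets separate groups with and without IFN-γ.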

How the data were processed

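RNA of RAW264.7 cells was sequenced by the authors as stranded poly(A) libraries, read single-ended over 100 bases. The deposited table holds whole-number read counts per gene, made by the authors with featureCounts on GENCODE M12 (GRCm38.p5) from uniquely aligned reads and without normalization. The submitters' processing notes name DESeq2 1.16.1 and R 3.4.1, and the aligner is not given in the sources used here. The 26 date-like names and 4 lines with repeated names were kept in the fits and are not named. The fit was tested on simulated data.

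Groups and replicates came from the labels, and the 24 libraries with HLA-numbered columns were not used here. Counts were tested with the edgeR 4.0.16 quasi-likelihood F test in R 4.3.3 (TMM, filterByExpr) on the 12 letter-labelled libraries with IFN-γ, and on all 24 for the comparison without IFN-γ and the interaction. A gene was called at a Benjamini-Hochberg adjusted p under 0.05 and over 1.5-fold. Alternatives used DESeq2 1.42.0, other scalings and filters, the replicate block, trends on length and GC (loess) and left-out libraries. Named genes were up to 12 per direction with the largest fold change, a mean of at least 10 CPM and no overlap, up to 4 called members per list, and 20 genes named by the study. Members and lists were chosen with earlier results of these data known. Chi-square per degree of freedom between the 6 libraries was 3.89 or more, so each was counted as 1 replicate. Positions and lengths came from GENCODE M21 and promoters from RefSeq, both GRCm38. Some results on single genes are not reported here.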

Additional observations from a re-analysis of the deposited data

Results flagged for a closer look

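The difference between LE and SE depended on IFN-γ, by the test of the interaction, for 116 genes, and 29 genes described here were among them. Values are log2 differences, LE minus SE with IFN-γ less the same without it, all at an edgeR adjusted p under 0.05. The signed difference was higher with IFN-γ for Ranbp3l (1.55), Prr11 (1.41), Aspm (1.28), Egr2 (1.26), Trim59 (1.26), Ncapg (1.21), Hmmr (1.18), Cenpf (1.13), Cxcr4 (1.11), Bub1 (1.07), Nek2 (1.07), Cep55 (1.04), Nusap1 (1.00), Prc1 (0.97), Diaph3 (0.93), Kif14 (0.93), Mki67 (0.92), Dbf4 (0.85), Ccna2 (0.82), Gins1 (0.79) and Arhgap11a (0.71). The signed difference was lower with IFN-γ for Hspa1a (-3.29), Hspa1b (-2.50), Cdhr3 (-1.31), Bcl3 (-0.96), Cdsn (-0.82), H2afj (-0.81), Lcn2 (-0.70) and Gpr84 (-0.60). Hspa1a had means of 0.251 CPM with LE and 0.134 CPM with SE without IFN-γ, so its interaction rests on few counts. The 3 libraries of a group are too few for a test of single outlying libraries.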

How the results depend on the processing

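Of 627 genes called between LE+IFNy and SE+IFNy, the count was 283 with a mean of at least 10 CPM required, 378 with the length and GC trends subtracted and 4525 at the adjusted p alone. Leaving out libraries gave 435 to 692. Other scalings, no filter, 6 or 24 libraries, DESeq2 and glmTreat stayed within 1.5 times in their totals, which is not the same as the same genes. Of the 627 genes, 545 were also called by DESeq2, 409 by glmTreat and 407 to 539 with libraries left out. Between LE and SE without IFN-γ, where 0 genes were called, 14 were called with no filter on low counts and 3 with DESeq2, and 0 with any library left out. The interaction, 116 genes, gave 235 with no filter and 175 with DESeq2, and 0 to 140 with libraries left out. A count of 0 there came with fewer libraries in the fit. The replicate block gave 626, 0 and 162 genes for these comparisons, and 389 for the first with the trends subtracted as well. Replicate numbers were not taken as pairs in the main fit. The deviations of same-numbered LE+IFNy and SE+IFNy libraries correlated at 0.0332, 0.161 and 0.109, where 0.1 had been set for pairing. Each correlated best with its own number, so these values do not show that the numbers are unpaired. Groups without IFN-γ were not checked in this way, although replicate 1 had the lowest glycolysis level in each of them. Of 72 named genes called, 54 were called under every alternative run and none changed sign. Depth limits genes near 1 CPM, such as Il1b.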

Other observations

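Among the 627 called genes 550 were protein-coding, 382 higher with LE and 168 higher with SE. Of 20 called genes annotated as antisense, 16 were higher with SE and 4 with LE, and of 13 lincRNAs 4 and 9. The genes tested of each kind were not counted, so no share can be set beside the 4.93% called over all genes. Whether counting used strand is not given in the sources used here, so the antisense counts are uncertain. Ranbp3l had 3.72, 4.00 and 5.11 CPM with LE and 1.11, 1.14 and 1.22 CPM with SE, a log2 fold change of 1.87 (standard error 0.199, edgeR adjusted p 8.11e-06), where IFN-γ alone gave 6.07 to 7.03 CPM. Cdhr3, a cadherin-related gene, had 2.67, 2.96 and 1.76 CPM with LE and 6.15, 7.88 and 6.31 CPM with SE, a log2 fold change of -1.44 (standard error 0.178, edgeR adjusted p 2.63e-05), and 9.64 to 11.5 CPM with IFN-γ alone. Trim59 had 12 to 15 CPM with LE and 5.46 to 7.38 CPM with SE, a log2 fold change of 1.06 (standard error 0.163, edgeR adjusted p 0.000157). These genes were chosen after their values were seen. Of all 627 calls 83 were over 2-fold higher with LE and 44 over 2-fold higher with SE.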
